A study of Rattus norvegicus with 16 samples.

Results

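Neurexins and neuroligins are adhesion proteins that meet across the synaptic cleft, and they were measured here as 14 isoforms of 5 genes among the 21698 isoforms and 16602 gene symbols of the deposited table. The members were taken by symbol, as every row named Nrxn2, Nrxn3, Nlgn1, Nlgn2 or Nlgn3, with no filter on measured values. The choice of these genes was made with earlier results of these data known. The tissue was dorsal CA1, a field of the hippocampus rich in pyramidal neurons, of 14-day-old male Sprague-Dawley rats, as bulk RNA with 1 library per labelled sample and 8 samples per group. The kainate group had received 2 mg/kg kainate under the skin on postnatal day 7, which set off generalized seizures in all of these animals, and the control group had received saline on the same day. All 16 animals were killed 7 days after the injection, and their CA1 was cut from 400 µm slices that had first rested for 60 min in artificial cerebrospinal fluid, a step common to both groups. In bulk tissue, fewer cells of a type and less RNA per cell cannot be told apart.

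Neurexins sit mainly in the presynaptic membrane, and each gene gives long alpha and short beta forms from separate promoters, with many spliced variants. Neuroligins are their postsynaptic partners. In rodent neurons Nlgn1 is found chiefly at excitatory synapses, Nlgn2 chiefly at inhibitory ones and Nlgn3 at both, and through cytoplasmic scaffolds they help to gather receptors opposite the release site. Which of the isoforms below encode alpha or beta forms, or hold a given spliced exon, was not analysed here.

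No member passed the test of kainate against control across the whole table. At an adjusted p under 0.05 (limma on the deposited log2 values, Benjamini-Hochberg over all isoforms), 0 of 14 member isoforms were called, and so were 0 of 21698 isoforms, a background of 0%. Summed per gene, 0 of 5 members passed, against a background of 0% of genes. At an unadjusted p under 0.05, 0 of 14 isoforms and 0 of 5 genes passed by limma, where the backgrounds were 1.50% of isoforms and 1.39% of genes. With the replicate number as a block the member counts were again 0 of 14 and 0 of 5, against backgrounds of 6.13% and 6.60%. In the authors' deposited table, 7 isoforms of any gene had an adjusted p under 0.05 and none was a member, and 0 of 14 members had an unadjusted p under 0.05, against a background of 5.66%.

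The means nevertheless lay on 1 side. Of the 14 isoforms, 12 had a higher mean in kainate than in control libraries, against a background of 49.9% of all isoforms, and all 5 summed genes did, against 47.6% of all genes. The shifts were small: the median difference, kainate minus control, was 0.044 on the log2 scale over the member isoforms, beside -0.00015 over all isoforms, and 0.048 over the member genes, beside -0.0017 over all genes. Isoforms of 1 gene, and genes measured in the same libraries, are not independent, so these counts describe the members and carry no test.

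The size of that shift, more than its direction, leaned on 1 pair of libraries, number 8, which lies within the set of replicates 5 to 8. Kainate replicate 8 exceeded control replicate 8 in 13 of 14 member isoforms, with a median difference of 0.17, whereas 50.4% of all isoforms were higher there. In the other pairs of equal number, kainate was higher in between 4 and 10 of the 14. The counts were 9, 7, 6 and 6 for numbers 1 to 4 and 10, 4 and 7 for numbers 5 to 7. The median differences of these pairs ran from -0.038 to 0.040. Without both libraries of number 8, 11 of 14 isoform means and 5 of 5 gene means were still higher. The median over the member isoforms was then 0.013. Without kainate replicate 8 alone it was 0.017, with 10 of 14 higher. Other single libraries also lowered this median: it was 0.023 without kainate replicate 1 and 0.023 without control replicate 5, with 11 and 12 of 14 higher. In replicates 1 to 4 alone, 7 of 14 isoforms and 3 of 5 genes had higher means, and in replicates 5 to 8 alone 11 of 14 and 5 of 5 did. For 8 of 14 isoforms the differences in these sets had opposite signs, against a background of 44.5% of all isoforms.

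**Figure D1:**
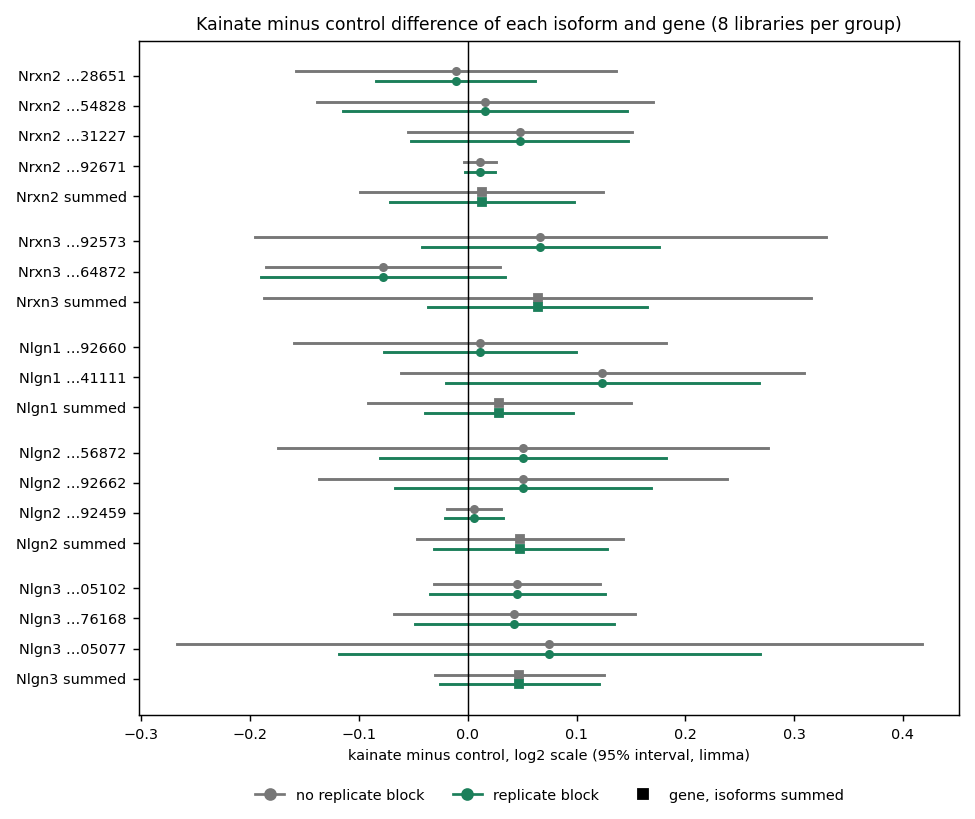
Kainate minus control difference of each member isoform and of each gene with its isoforms summed, on the log2 scale, with 95% intervals from limma without and with the replicate block (8 libraries per group; isoforms are marked by the last 5 digits of their identifier). Every interval crosses 0, and 17 of the 19 differences lie to the right of it.

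Library facts bear on all of these values. Over the whole table, the leading principal component (45.3% of variance) set replicates 1 to 4 of each group apart from the libraries numbered 5 to 8; the labels do not say what these sets are. Markers of CA1 pyramidal cells, among them Wfs1, Mpped1 and Fibcd1, were present, with a list mean of 13.63 to 13.80 in kainate and 13.59 to 13.85 in control libraries, while Pou3f1 was not measured here. Of the lists of other cells, all 5 oligodendrocyte genes had lower means in kainate libraries (median -0.12; list mean 14.25 to 14.66 in kainate and 14.32 to 14.77 in control libraries) and all 5 dentate granule genes had higher means (median 0.13; 9.63 to 10.04 in kainate and 9.64 to 9.88 in control libraries). The 4 general neuron genes averaged 14.21 to 14.39 in kainate and 14.21 to 14.34 in control libraries. Their median difference was 0.027, with 3 of 4 means higher in kainate, and that of the 4 measured CA1 pyramidal genes was 0.023, with 2 of 4 higher. Medians were -0.030 for 4 CA3 genes, -0.025 for 6 interneuron genes, 0.0030 for 5 astrocyte genes, -0.013 for 4 oligodendrocyte precursor genes, -0.0092 for 5 microglial genes, 0.032 for 2 of 3 listed vessel genes and -0.19 for 2 of 4 ependymal genes, those measured here. The part of these in the members' differences was not tested.

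Nrxn2, a presynaptic neurexin, lies on chromosome 1 from position 221792221 (gene ENSRNOG00000021103); positions are those of the deposited table, and their genome build is not stated. It was measured as 4 isoforms, and its normalized counts were spread over 3 of them: ENSRNOT00000028651 held 40.6%, ENSRNOT00000054828 held 36.1% and ENSRNOT00000031227 held 23.3%. These are shares of the authors' mean normalized counts, which are not corrected for transcript length. The fourth isoform, ENSRNOT00000092671, is annotated as a processed transcript without a coding sequence and had a mean normalized count of only 6.51.

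The leading isoform of Nrxn2, ENSRNOT00000028651, ran from 12.66 through a median of 12.92 to 13.04 in kainate libraries and from 12.68 through 12.92 to 13.07 in control libraries, in deposited log2 values. The groups covered almost the same range, with means of 12.88 ± 0.15 in kainate and 12.89 ± 0.14 in control libraries (SD, n = 8 each). The difference was -0.011 ± 0.070 (SE; limma, adjusted p = 1.00), with a 95% interval of -0.16 to 0.14. What did separate the libraries of this isoform was the replicate set. Replicates 1 to 4 of both groups lay at 12.66 to 12.88 and replicates 5 to 8 at 12.96 to 13.07, with no overlap. The sets were apart in this way in 9.83% of all isoforms.

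ENSRNOT00000092671, the weak Nrxn2 transcript, lay at 2.66, 2.69 and 2.70 (lowest, median, highest) in kainate libraries and at 2.66, 2.67 and 2.70 in control libraries. Its 16 libraries spanned only a few hundredths of a log2 unit. The difference was 0.011 ± 0.0071 (SE, n = 8 per group; limma, adjusted p = 1.00). Its unadjusted p of 0.132 was the smallest of any member by limma without the block; with the block that of Nlgn1 ENSRNOT00000041111 was smaller. The remaining isoforms differed by 0.016 ± 0.073 for ENSRNOT00000054828 and 0.048 ± 0.049 for ENSRNOT00000031227 (SE, n = 8 per group). The highest value of ENSRNOT00000031227 was 12.32 in kainate replicate 8, against 11.97 in control replicate 8, which was its lowest.

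Summed over isoforms, Nrxn2 ran from 13.99 through 14.24 to 14.34 in kainate and from 14.01 through 14.21 to 14.29 in control libraries (lowest, median, highest). The groups overlapped over nearly their whole range. The difference was 0.013 ± 0.053 (SE, n = 8 per group; limma, adjusted p = 1.00), and its 95% interval corresponds to 0.933 to 1.09 times control on the deposited scale.

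Nrxn3 is the other neurexin measured here, on chromosome 6 from position 112133204 (ENSRNOG00000047574), with 2 isoforms. Of its mean normalized counts, 98.1% were assigned to ENSRNOT00000092573, which the deposited annotation classes as a processed transcript, and 1.90% to ENSRNOT00000064872, the protein-coding one. The value of the gene as a whole is therefore almost that of a transcript annotated as non-coding.

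ENSRNOT00000092573 lay at 11.85, 12.22 and 12.44 (lowest, median, highest) in kainate libraries and at 11.79, 12.11 and 12.43 in control libraries. The groups overlapped, with means of 12.17 ± 0.24 in kainate and 12.10 ± 0.29 in control libraries (SD, n = 8 each). The difference was 0.067 ± 0.12 (SE; limma, adjusted p = 1.00), and 0.067 ± 0.049 with the block (limma, adjusted p = 0.841). Here too the replicate sets stood apart without overlap, at 12.26 to 12.44 in replicates 1 to 4 and 11.79 to 12.18 in replicates 5 to 8, a difference of 0.47 that was the largest between the sets among the 14 isoforms.

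Within the sets, the kainate minus control difference of ENSRNOT00000092573 was -0.0042 in replicates 1 to 4 and 0.14 in replicates 5 to 8 (exact two-sided permutation test, n = 4 per group, p = 0.0857). The smallest p that 4 libraries against 4 allow is 0.0286. The difference in replicates 5 to 8 was carried mostly by number 8, where the kainate library had 12.18 and the control library 11.80.

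The protein-coding isoform ENSRNOT00000064872 lay at 6.27, 6.40 and 6.57 in kainate libraries and at 6.31, 6.51 and 6.62 in control libraries (lowest, median, highest). Only 2 kainate libraries exceeded the control median, but the ranges overlapped. It was 1 of 2 members with a lower mean after kainate, with a difference of -0.078 ± 0.051 (SE, n = 8 per group; limma, adjusted p = 1.00). The difference was -0.16 in replicates 1 to 4 (exact two-sided permutation test, n = 4 per group, p = 0.114), against 0.0020 in replicates 5 to 8.

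The 2 isoforms of Nrxn3 thus had means on opposite sides. The log2 ratio of ENSRNOT00000092573 to ENSRNOT00000064872 averaged 5.75 ± 0.25 in kainate and 5.61 ± 0.23 in control libraries (SD, n = 8 each), with kainate higher in 6 of 8 pairs. Isoform usage, the test of whether the isoforms of a gene move differently, called 0 of 5 members at an adjusted p under 0.05 (limma diffSplice, Simes), as it did 0 of 3774 genes with several isoforms, a background of 0%. At an unadjusted p under 0.05 it called 0 of 5 without the block and 0 of 5 with it, against backgrounds of 2.33% and 6.81%. Nrxn3 had the smallest usage p of the members in each, with a limma adjusted p = 1.00 without the block and adjusted p = 0.716 with it. With a term for the replicate sets in the model instead, Nrxn3 was the 1 of 5 members with an unadjusted p under 0.05 (limma, adjusted p = 0.955), against a background of 5.06%.

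**Figure D2:**
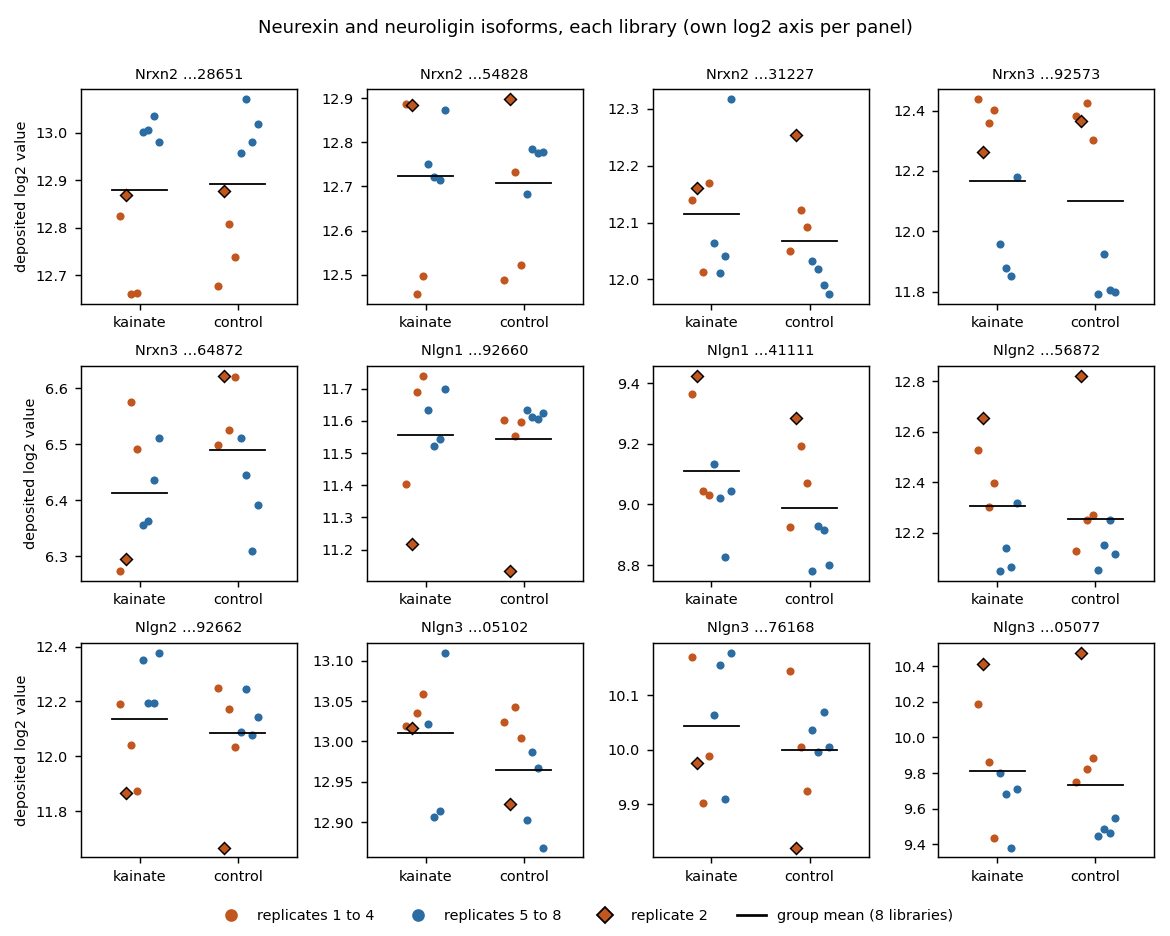
Deposited log2 values of the 12 member isoforms with a mean normalized count of at least 20, each point 1 library and each bar the mean of 8 libraries; the vertical scale differs between panels, colours mark replicates 1 to 4 and 5 to 8, and diamonds mark replicate 2. Kainate and control points overlap in every panel, while the colours separate for Nrxn3 ENSRNOT00000092573 and Nrxn2 ENSRNOT00000028651, as they would for 9.83% of all isoforms.

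Across the members, as over all isoforms, the replicate sets differed by more than the treatment groups. The median size of the difference was 0.10 between the sets and 0.047 between kainate and control over the 14 isoforms, beside 0.072 and 0.023 over all isoforms. The difference between the sets was larger than that of treatment in 13 of 14. The share of all isoforms with this trait was not counted, but the medians over all isoforms had the same order. Kainate and control libraries were separated without overlap in 0 of 14 members, against a background of 0%. The sets were separated in 2 of 14 (Nrxn2 ENSRNOT00000028651 and Nrxn3 ENSRNOT00000092573), against a background of 9.83%.

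Nlgn1, the neuroligin of excitatory synapses, lies on chromosome 2 from position 111057291 (ENSRNOG00000032576) and was measured as 2 protein-coding isoforms. ENSRNOT00000092660 held 84.8% of its mean normalized counts and ENSRNOT00000041111 held 15.2%. With all libraries included, the minor isoform had the largest difference from control among the 14.

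ENSRNOT00000041111 lay at 8.83, 9.04 and 9.42 (lowest, median, highest) in kainate libraries and at 8.78, 8.93 and 9.29 in control libraries. All kainate libraries but 1 exceeded the control median, while the ranges overlapped over most of their width; the means were 9.11 ± 0.19 in kainate and 8.99 ± 0.18 in control libraries (SD, n = 8 each). The difference was 0.12 ± 0.088 (SE; limma, adjusted p = 1.00), or 1.09 times control, with a 95% interval of 0.958 to 1.24 times. With the block the SE was 0.065 (limma, adjusted p = 0.810), and kainate was higher in 5 of 8 pairs. The difference was 0.079 without kainate replicate 2 and also without both libraries of number 1, and with any 1 library left out it ran from there to 0.17.

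This isoform had a higher kainate mean in both replicate sets, by 0.15 in replicates 5 to 8 (exact two-sided permutation test, n = 4 per group, p = 0.0857) and by 0.098 in replicates 1 to 4 (p = 0.514 by the same exact test). In the authors' deposited table it also had the smallest p of the members, with a log2 fold change of 0.12, a p of 0.0821 and an adjusted p of 0.788.

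The major isoform ENSRNOT00000092660 lay at 11.22, 11.59 and 11.74 in kainate and at 11.13, 11.60 and 11.63 in control libraries (lowest, median, highest). Its lowest value in each group belonged to replicate 2, and the other control libraries lay close together between 11.55 and 11.63. The difference was 0.011 ± 0.081 (SE, n = 8 per group; limma, adjusted p = 1.00), with a 95% interval of -0.16 to 0.18.

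Summed Nlgn1 ran from 11.58 through 11.81 to 11.95 in kainate and from 11.49 through 11.81 to 11.83 in control libraries. The medians were equal to 2 decimals. The difference was 0.029 ± 0.057 (SE, n = 8 per group; limma, adjusted p = 1.00), and the 95% interval was 0.938 to 1.11 times control.

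Nlgn2, the neuroligin of inhibitory synapses, lies on chromosome 10 from position 56431573 (ENSRNOG00000015430). Its mean normalized counts were divided between ENSRNOT00000056872, with 53.1%, and ENSRNOT00000092662, with 46.8%. ENSRNOT00000092459, annotated as a transcript with a retained intron, had a mean normalized count of 9.71, or 0.101% of the gene.

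ENSRNOT00000056872 lay at 12.05, 12.31 and 12.65 in kainate and at 12.05, 12.20 and 12.82 in control libraries (lowest, median, highest). The highest value of each group was that of replicate 2. The difference was 0.051 ± 0.11 (SE, n = 8 per group; limma, adjusted p = 1.00), with 0.10 in replicates 1 to 4 and -0.00036 in replicates 5 to 8. It was 0.0010 without kainate replicate 2 and 0.13 without control replicate 2, the ends of its range with 1 library left out.

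ENSRNOT00000092662 lay at 11.87, 12.19 and 12.38 in kainate and at 11.67, 12.12 and 12.25 in control libraries (lowest, median, highest). Here replicate 2 gave the lowest value of each group. The difference was 0.051 ± 0.089 (SE, n = 8 per group; limma, adjusted p = 1.00), with -0.038 in replicates 1 to 4 and 0.14 in replicates 5 to 8. It and Nlgn1 ENSRNOT00000041111 were the 2 of 14 members with an unadjusted p under 0.05 by limma in replicates 5 to 8 alone (adjusted p = 0.767 for both), against a background of 5.02%, and in replicates 1 to 4 alone 0 of 14 were, against 2.12%. By the exact two-sided permutation test in replicates 5 to 8 (n = 4 per group), p was 0.114 for ENSRNOT00000092662 and 0.0857 for ENSRNOT00000041111. The weak retained-intron transcript differed by 0.0058 ± 0.012 (SE, n = 8 per group).

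The 2 main isoforms of Nlgn2 varied in opposite directions between libraries. Their log2 ratio, ENSRNOT00000056872 over ENSRNOT00000092662, averaged 0.17 ± 0.37 in kainate and 0.17 ± 0.42 in control libraries (SD, n = 8 each). It reached 0.79 in kainate replicate 2 and 1.15 in control replicate 2, and lay between -0.30 and 0.17 in replicates 5 to 8 of both groups. The gene sum varied less than either isoform, from 13.13 through 13.19 to 13.37 in kainate and from 13.07 through 13.18 to 13.36 in control libraries. Its difference was 0.048 ± 0.045 (SE, n = 8 per group; limma, adjusted p = 1.00), with a 95% interval of 0.968 to 1.10 times control.

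**Figure D3:**
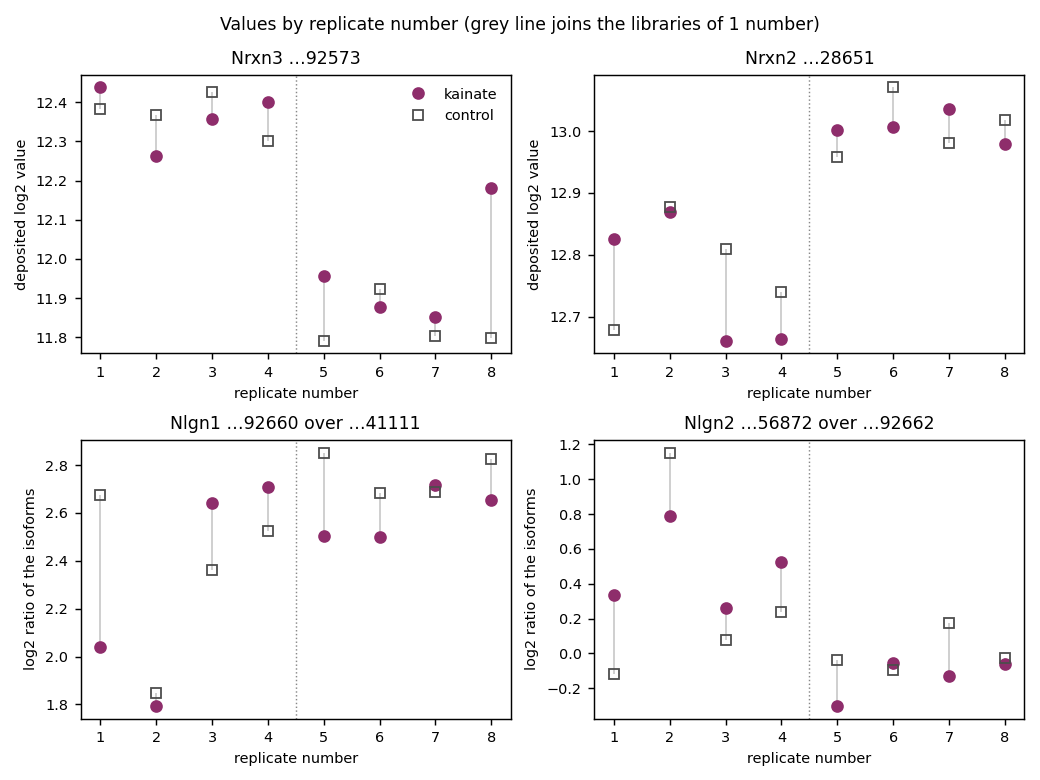
Values by replicate number for 2 neurexin isoforms (deposited log2 value) and for the log2 ratio of the main isoforms of Nlgn1 and Nlgn2, with filled circles for kainate, open squares for control and grey lines joining the libraries of 1 number. The dotted line divides replicates 1 to 4 from 5 to 8: Nrxn3 ENSRNOT00000092573 lies at 12.26 or above to its left and at 12.18 or below to its right, and both libraries of number 2 have the highest Nlgn2 ratios, 0.79 and 1.15.

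Nlgn3, found at both kinds of synapse, lies on chromosome X from position 71199491 (ENSRNOG00000003812) and was measured as 3 protein-coding isoforms. ENSRNOT00000005102 held 80.4% of its mean normalized counts, ENSRNOT00000076168 held 10.3% and ENSRNOT00000005077 held 9.28%. All 3 had higher means in kainate libraries.

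ENSRNOT00000005102 lay at 12.91, 13.02 and 13.11 in kainate and at 12.87, 12.98 and 13.04 in control libraries (lowest, median, highest). It was the steadiest of the isoforms with a mean normalized count of at least 20, with means of 13.01 ± 0.069 in kainate and 12.96 ± 0.062 in control libraries (SD, n = 8 each), and 6 kainate libraries exceeded the control median. The difference was 0.045 ± 0.036 (SE; limma, adjusted p = 1.00), and the kainate mean was higher in both replicate sets, by 0.034 in replicates 1 to 4 and 0.057 in replicates 5 to 8. Kainate was higher in 4 of 8 pairs.

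ENSRNOT00000076168 differed by 0.043 ± 0.053 and ENSRNOT00000005077 by 0.075 ± 0.16 (SE, n = 8 per group). ENSRNOT00000005077 was the most variable of the 14, at 9.38, 9.75 and 10.42 in kainate and 9.44, 9.65 and 10.48 in control libraries (lowest, median, highest), and the highest value of each group was again replicate 2. Summed Nlgn3 ran from 13.19 through 13.33 to 13.40 in kainate and from 13.18 through 13.28 to 13.34 in control libraries. The groups overlapped, and the difference was 0.048 ± 0.037 (SE, n = 8 per group; limma, adjusted p = 1.00), with the narrowest 95% interval of the 5 genes, 0.979 to 1.09 times control. The widest was that of Nrxn3, 0.064 ± 0.12 (SE, n = 8 per group; limma, adjusted p = 1.00), at 0.878 to 1.24 times.

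Both libraries of replicate 2 stood at the same end of the 16 values in 4 of 14 isoforms, against a background of 13.0% of all isoforms. They were the 2 highest for Nlgn3 ENSRNOT00000005077 and Nlgn2 ENSRNOT00000056872, and the 2 lowest for Nlgn2 ENSRNOT00000092662 and Nlgn1 ENSRNOT00000092660. All 4 are isoforms of neuroligins, which are 3 of the 5 member genes. The 2 of Nlgn2 varied in opposite directions and are not independent. Over all isoforms, the share for the other replicate numbers ran from 1.07% to 7.34%. Without both libraries of number 2, 12 of 14 isoforms and 5 of 5 genes still had higher means in kainate, with an isoform median of 0.028, and 0 were called.

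The known partners of these proteins were described by their gene sums in the same fit, from lists chosen with earlier results of these data known. At an adjusted p under 0.05 (limma), 0 genes of any list passed, with or without the block. Of 23 measured neurexin ligands of 27 listed, 19 had a higher mean in kainate libraries, with a median of 0.023, beside 47.6% and -0.0017 over all genes. C1ql3, a secreted C1q-like protein, lay at 10.32, 10.58 and 10.93 in kainate and at 10.26, 10.46 and 10.75 in control libraries (lowest, median, highest), overlapping for most of the range. Its difference was 0.16 ± 0.093 (SE, n = 8 per group; limma, adjusted p = 1.00). Beside it, its relative C1ql2, which is in both the ligand list and the dentate granule list, differed by 0.086, and the part of dentate RNA in this was not tested. Adgrl1, a latrophilin, differed by 0.060 ± 0.043 and the neurexophilin Nxph2 by -0.012 ± 0.0072 (SE, n = 8 per group).

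On the presynaptic inner side, 8 of 9 cytoplasmic partners of neurexins had higher means, with a median of 0.028. The complex of Cask, a scaffold that binds the neurexin tail, with Lin7 proteins was represented by Lin7c at 0.081 ± 0.050, Cask at 0.053 ± 0.054 and Lin7a at 0.028 ± 0.031 (SE, n = 8 per group). The other Lin7 gene, Lin7b, was the 1 cytoplasmic partner with a lower mean, at -0.0093, and is named after its value was seen. On the postsynaptic inner side, 10 of 12 partners and regulators of neuroligins had higher means, with a median of 0.039. The scaffold genes Dlgap1, Dlg3 and Dlg2 were at 13.93, 13.72 and 12.94 in kainate and at 13.87, 13.66 and 12.84 in control libraries (means of the log2 gene sums, n = 8 each).

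Among regulators of neurexin and neuroligin splicing, 9 of 12 had higher means, with a median of 0.035. Khdrbs2, an RNA-binding protein that acts on alternative exons of neurexins, lay at 8.17, 8.26 and 8.33 in kainate and at 8.08, 8.18 and 8.33 in control libraries (lowest, median, highest), so the groups overlapped. Its difference of 0.076 ± 0.035 (SE, n = 8 per group) was the only one in the partner lists with an unadjusted p under 0.05 without the block (limma, adjusted p = 1.00). Rbfox3, a neuronal splicing factor that is also in the neuron marker list, differed by 0.075 ± 0.041 and the microexon regulator Srrm4 by 0.073 ± 0.046 (SE, n = 8 per group).

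Of 5 measured proteases that shed neurexins or neuroligins, 4 had higher means, with a median of 0.032. The sheddase Adam10 differed by 0.033 ± 0.049 and the matrix protease Mmp9 by 0.032 ± 0.057 (SE, n = 8 per group). Other trans-synaptic organisers had higher means in 25 of 31 measured genes, with a median of 0.036. Among them Flrt3, a ligand of latrophilins, differed by 0.071 ± 0.037, Slitrk3, an organiser of inhibitory synapses, by 0.074 ± 0.044 and Il1rapl1, a partner of the receptor phosphatase Ptprd, by 0.074 ± 0.049 (SE, n = 8 per group).

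With the replicate block and an unadjusted p under 0.05 (limma), the genes counted were 2 ligands, 1 cytoplasmic partner, 1 neuroligin partner, 3 splicing regulators, 0 proteases and 6 other organisers, each with a higher mean in kainate libraries. The background was 6.60% of all genes, of which 673 were higher and 423 lower. These genes share the 16 libraries with the members, and the adjusted p of those named was 0.750 or above by limma in this fit.

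**Figure D4:**
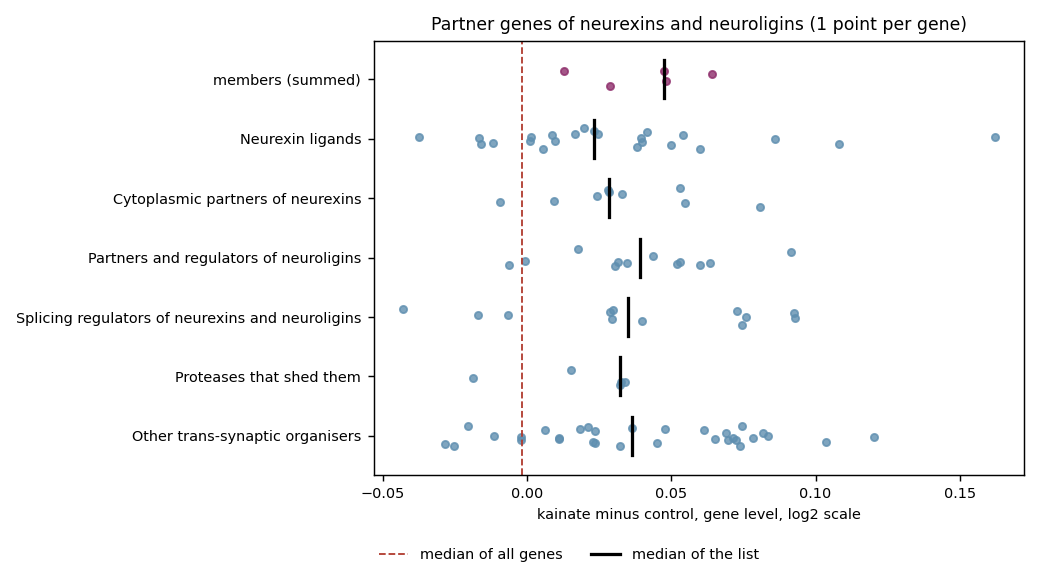
Kainate minus control difference of the gene sum (log2 scale) for the 5 member genes and for each measured gene of 6 partner lists, 1 point per gene, with the median of each list as a bar and the median of all genes, -0.0017, as a dashed line. Each list has most of its points to the right of the dashed line and its median between 0.023 and 0.048.

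The genes whose values followed each member most closely over the 16 libraries were found after the mean of each treatment and replicate set was subtracted, as a description of libraries that share their preparation and scaling. For Nrxn2 the Pearson coefficients were highest with LOC100911196 (0.968), Ptprs (0.965) and Ap3d1 (0.963). For Nrxn3 they were highest with Srgap3 (0.920), Arhgap21 (0.918) and Slc6a17 (0.893). Nlgn1 was closest to Lmbr1 (0.967), Usp29 (0.967) and Cep120 (0.963). Nlgn2 was closest to Unc13a (0.971), Man2a2 (0.965) and Gse1 (0.954). Nlgn3 was closest to Tsc1 (0.956), Heg1 (0.950) and Nav1 (0.931). The 5 members had no gene in common among these.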

How the data were processed

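RNA-seq libraries of dorsal CA1 from 8 kainate and 8 saline rats were used, grouped by sample title. The tools listed in the submitters' processing notes, with neither version nor role, are RSEM, DESeq2, Trim Galore, GATK and SAMtools. RSEM estimates how reads that fit several isoforms are divided among them, so values of isoforms of 1 gene depend on each other. In the sources used here no aligner, genome build or annotation is stated.

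The authors deposited, per isoform and animal, a value on a log2 scale, by a transform that is not named. The deposited mean normalized count is a signal averaged over animals. The authors' DESeq2 log2 fold change, its standard error, Wald score, p-value and ratio (fold) were copied from the deposited table only where it is named. These values hold no read totals: the depth of each library is unknown, and counting intervals are left out.

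The log2 values were fitted as deposited, with no filter and no added constant, with limma 3.58.1 in R 4.3.3 (mean-variance trend, robust empirical Bayes, two-sided) over all isoforms, without a block. For gene values, isoforms of 1 symbol were returned to a linear scale, summed and taken to log2 again. Isoform usage was tested with diffSplice. All were adjusted by Benjamini-Hochberg at 0.05. The isoform fit without a block and the usage test were tried on simulated data with known changes. The simulated noise was independent between libraries, which does not hold for these data. The fits with the block or the set term and the gene fits were not simulated. Nothing says whether the samples share litters or days, so p-values measure the spread between these samples.

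Libraries of equal number deviated together from their group means (Pearson coefficients of 0.127 to 0.781 over isoforms, all 8 above the limit of 0.1). The difference between the replicate sets stayed in these deviations, and libraries of unequal number were not compared. The coefficients therefore cannot tell pairing by number from shared membership of a set. The numbers were taken to pair libraries, from the data and not from the labels, and the block and the pair counts rest on this assumption. Alternatives were the block, a term for replicates 1 to 4, each set alone, leaving out libraries, other scaling, other variance models, a floor of 20 normalized counts and gene means. Isoforms given in full are, per gene, those with the smallest p and the highest mean normalized count; up to 3 genes per partner list were named by smallest p (1 is not reported here), and 3 most alike genes per member by correlation. Members and lists were chosen with earlier results of these data known.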

Additional observations from a re-analysis of the deposited data

Results flagged for a closer look

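Of 38 groups of 8 libraries examined (14 isoforms and 5 gene sums, kainate and control apart), 5 held a library whose gap to its nearest neighbour, divided by the range of the group, was above the limit of 0.526. Chance alone gives this in about 1 in 20 groups, and values of isoforms of 1 gene are not independent. All 5 belonged to control replicate 2 and to neuroligins, which are 3 of the 5 member genes. The share of all isoforms flagged by this rule was not counted. Replicate 2 stood out over the whole table: its libraries were the 2 highest or 2 lowest in 13.0% of all isoforms. For the other numbers this share ran from 1.07% to 7.34%. Nlgn1 ENSRNOT00000092660 was at 11.13 there, below the next control library at 11.55 (gap over range 0.837), and summed Nlgn1 was at 11.49, below 11.81 (0.943). Nlgn2 ENSRNOT00000056872 was at 12.82, above the next at 12.27 (0.717), while Nlgn2 ENSRNOT00000092662 was at 11.67, below the next at 12.04 (0.635). Nlgn3 ENSRNOT00000005077 was at 10.48, above the next at 9.89 (0.572). Kainate replicate 2 lay at the same end of its group as control replicate 2 for each of these 4 isoforms, at 11.22, 12.65, 11.87 and 10.42 in the same order.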

How the results depend on the processing

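The counts of called member isoforms, genes and usage changes were 0 in the fit as reported and 0 under every alternative run, from limma with the replicate block, where the adjusted p of member isoforms and genes ran from 0.806 for summed Nlgn3 to 0.969 for Nrxn2 ENSRNOT00000054828, to other scaling and left-out libraries. The whole table also had 0 calls, except for usage, with 5 genes in replicates 5 to 8 alone and 1 gene without control replicate 1, none a member, so this says little on stability. Of 516 values of the 19 differences under alternatives, 481 had the direction reported and 35 the opposite one; 6 differences never turned. Some of the 481 could not have turned. The fits with the replicate block, with a term for the replicate sets and without the mean-variance trend leave each difference as it was. The floor on normalized counts likewise cannot change the difference of an isoform. The count of 481 therefore overstates how stable the directions were. Higher means were counted in 7 of 14 isoforms and 3 of 5 genes in replicates 1 to 4 alone, and in 10 to 13 isoforms and 4 to 5 genes with 1 library left out. In replicates 1 to 4 alone the turned values were -0.0086 for Nlgn3 ENSRNOT00000005077, -0.0094 for Nrxn2 ENSRNOT00000031227, -0.0094 for Nlgn2 ENSRNOT00000092459, -0.0042 for Nrxn3 ENSRNOT00000092573, -0.038 for Nlgn2 ENSRNOT00000092662, -0.0017 for summed Nrxn2 and -0.0067 for summed Nrxn3. In replicates 5 to 8 alone they were -0.00036 for Nlgn2 ENSRNOT00000056872, 0.0020 for Nrxn3 ENSRNOT00000064872 and -0.018 for Nlgn1 ENSRNOT00000092660. Without both libraries of number 1, Nrxn2 ENSRNOT00000054828 was -0.039 and summed Nrxn2 -0.018. Nlgn2 ENSRNOT00000092459 was -0.0019 with libraries centred on their median and -0.0020 without both libraries of number 8. Summed Nrxn3 was -0.0055 as a mean of isoform values. With 1 library left out, ranges that crossed 0 were -0.047 to 0.060 for Nlgn1 ENSRNOT00000092660, -0.0089 to 0.089 for Nlgn2 ENSRNOT00000092662, -0.012 to 0.18 for Nlgn3 ENSRNOT00000005077, -0.041 to 0.020 for Nrxn2 ENSRNOT00000028651, -0.016 to 0.054 for Nrxn2 ENSRNOT00000054828, -0.012 to 0.060 for summed Nlgn1 and -0.011 to 0.043 for summed Nrxn2. Ranges that kept 1 sign but moved by over 1.5 times included 0.0010 to 0.13 for Nlgn2 ENSRNOT00000056872, 0.023 to 0.11 for Nrxn3 ENSRNOT00000092573, 0.079 to 0.17 for Nlgn1 ENSRNOT00000041111, 0.019 to 0.074 for Nrxn2 ENSRNOT00000031227 and 0.017 to 0.063 for Nlgn3 ENSRNOT00000076168. The cause was not tested. Leaving out both libraries of number 2 was chosen after seeing the data.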
